A study of Mus musculus with 13 samples.

Results

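The transcripts of 9 transcription factor genes of the limb bud mesenchyme, Prrx1, Prrx2, Alx4, Twist1, Tbx2, Tbx3, Tbx15, Tbx18 and Pax9, were described in RNA-seq of mouse limb buds. The genes were taken by symbol from a table of 12880 listed genes, and 9 of the 9 were present. The table holds 13 libraries, each from the limb buds of a separate embryo, in 4 groups. At E11.5, counted in embryonic days, the controls were Sox9fl/- (n = 3), which carry 1 floxed and 1 deleted Sox9 allele, and the mutants, called Sox9null here, were Sox9-/- (n = 4). At E12.5 the controls were Sox9fl/fl (n = 3) and the mutants, called Sox9cKO here, were Sox9fl/flPrx1CreER (n = 3). Because the control genotype differed between the ages, a difference between ages and a difference between control genotypes cannot be told apart, and the mutants of the 2 ages likewise differ in how Sox9 was removed. Prx1CreER is a tamoxifen-inducible Cre recombinase under a regulatory sequence of Prrx1 (formerly Prx1), itself among the genes described here, so deletion is limited to cells in which that sequence is active and to the time of induction. The labels name neither fore nor hind limb buds and do not say when tamoxifen was given.

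The limb bud is a core of mesenchyme from the lateral plate, with a jacket of ectoderm and immigrant muscle, vessel, nerve and blood cells. Paired-type homeodomain proteins (PRRX1, PRRX2, ALX4), the basic helix-loop-helix protein TWIST1 and T-box proteins set growth, position and cell fate in that mesenchyme, and PAX9 marks anterior mesenchyme and later parts of the skeleton. SOX9 is a high mobility group protein needed for the condensing mesenchyme to become cartilage. The genes here were therefore followed in limb buds with and without Sox9. In whole limb buds fewer cells of a type and less RNA per cell cannot be told apart.

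Levels are in RPKM, a read count per gene corrected for its length and the depth of the library, as normalized by the authors. Sox9, the targeted gene, read 35.8, 49.3 and 37.1 RPKM in the E11.5 controls and 20.6, 25.7, 25.0 and 22.7 RPKM in Sox9null, so the groups did not overlap but transcript reads remained. At E12.5 it read 37.5, 35.2 and 35.9 RPKM in the controls and 35.1, 28.7 and 32.2 RPKM in Sox9cKO, a smaller gap. The deleted part of the gene is not resolved by a value per gene, so this is a weak check of the labels. The mesenchyme marker Pdgfra lay between 62.8 and 67.9 RPKM in all 13 libraries, and the summed level of 12 mesenchyme genes lay between 464 and 585 RPKM, in overlapping ranges in the 4 groups. That sum was 561 to 585 RPKM in E11.5 control 2 and Sox9null 1 and 2, and 464 to 497 RPKM in the other E11.5 libraries. By the limma test given below, Dcn, Postn and Lum of the 12 were called higher at E12.5 between controls (21.7% of all genes called). Between mutants 3 of the 12 were called higher and 1 lower (19.7%). The 15 listed cartilage genes summed to 158 to 228 RPKM in E11.5 controls, 103 to 127 in Sox9null, 323 to 434 in E12.5 controls and 166 to 235 in Sox9cKO. The 21 listed erythroid genes summed to 910 to 1010, 945 to 1610, 724 to 776 and 987 to 1210 RPKM in the same order, and the 16 listed muscle genes to 69.8 to 115, 78.6 to 121, 266 to 348 and 174 to 272 RPKM. Y-linked transcripts were present in 1 of 3, 1 of 4, 3 of 3 and 1 of 3 libraries of these groups. By clustering of their log2 profiles the 7 E11.5 libraries fell into 2 sets: 1 held control 2 and Sox9null 1 and 2, and the other held controls 1 and 3 and Sox9null 3 and 4. Correlations across genes were 0.979 to 0.989 within a set and 0.938 to 0.966 between sets, and 57.3% of all genes did not overlap between sets. Because the sets were cut on these same profiles, these values describe the sets and cannot test them. No label says what the sets are.

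All 9 genes were detected in every library. In order of their mean over 13 libraries they were Tbx15 at 54.3 RPKM, Twist1 at 53.2, Prrx1 at 42.5, Tbx18 at 35.6, Prrx2 at 34.2, Tbx2 at 28.1, Tbx3 at 17.1, Alx4 at 15.4 and Pax9 at 7.54 RPKM, with an SD over libraries between 2.24 and 4.83. Twist1 stood above Prrx1, Prrx1 above Tbx18 and Tbx2 above Tbx3 in 13 of 13 libraries. The neighbours Tbx15 and Twist1 (10 of 13 libraries), Tbx18 and Prrx2 (9 of 13) and Tbx3 and Alx4 (9 of 13) differed by less than their SD over libraries. Prrx2 stood above Tbx2 in 12 of 13 libraries and Alx4 above Pax9 in 10 of 13. The genes split in their steadiness: the highest library was 1.24 to 1.5 times the lowest for Tbx15, Twist1, Prrx2, Tbx18, Prrx1 and Tbx2, and 2.4, 3.5 and 4.74 times for Tbx3, Alx4 and Pax9. The mean level of 9570 listed genes lay in the same span as the 9, from 7.54 to 54.3 RPKM, with Pax9 at its lower end. Among them the SD of log2(RPKM + 1) was smaller than that of Pax9 in 98.9%, Alx4 in 98.4% and Tbx3 in 94.5%. For Prrx2 and Twist1 the shares were 27.7% and 34.1%. Over all genes the shares for these 5 were 97.2%, 96.1%, 89.3%, 22.2% and 27.5%.

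**Figure D1:**
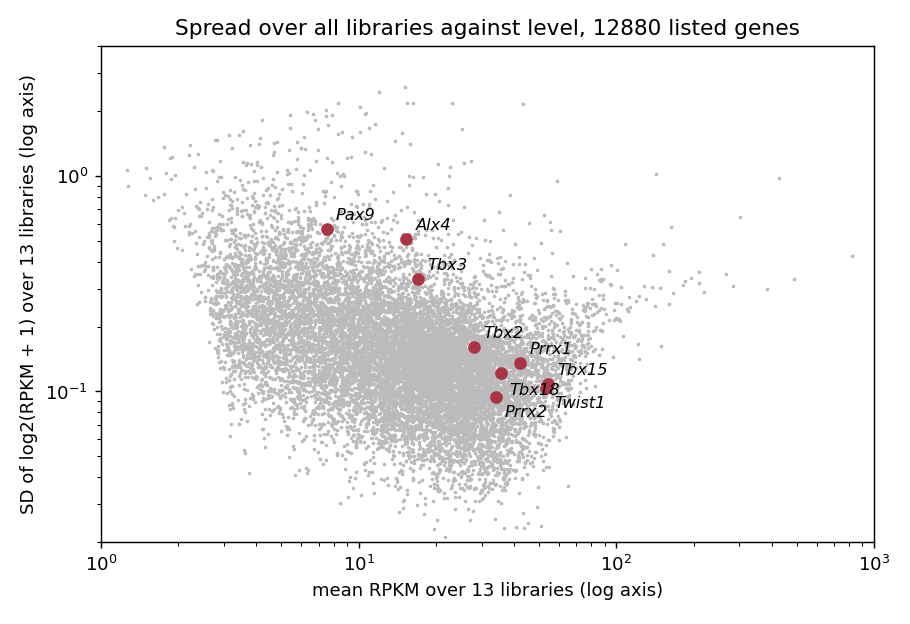
SD of log2(RPKM + 1) over 13 libraries against mean RPKM for all 12880 listed genes (grey points) with the 9 transcription factor genes (red points), both axes logarithmic. Pax9, Alx4 and Tbx3 lie high in the cloud for their level, and Prrx2 and Twist1 lie in its lower part.

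The promoter windows of 2 genes are shown. Pax9 was the most variable of the 9 on the log2 scale, and the Cre line of the E12.5 mutants is named after Prrx1. RefSeq windows (GRCm38.p6) hold 300 bases around the gene start, and 5 of the 9 genes had one. Capitals mark matches on either strand, with no overlap between them here, to ACAAAG or ACAATG (SOX words), GGTGTG (a T-box word), TAATTA (a homeodomain word) and CCACCCA (a GLI word), which occurred in 18.7%, 12.6%, 19%, 5.29% and 9.3% of 32851 mouse windows of the same length. The windows are Pax9 at chr12:56695221-56695520 on the plus strand, inside the GENCODE gene body, and Prrx1 at chr1:163313601-163313900 on the minus strand, printed along the gene's own strand:
Pax9: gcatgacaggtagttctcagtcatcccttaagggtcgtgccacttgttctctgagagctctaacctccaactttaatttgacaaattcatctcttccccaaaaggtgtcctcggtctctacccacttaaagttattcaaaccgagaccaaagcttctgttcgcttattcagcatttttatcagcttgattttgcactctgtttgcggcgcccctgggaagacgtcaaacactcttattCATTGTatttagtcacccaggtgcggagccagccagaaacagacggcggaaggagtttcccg
Prrx1: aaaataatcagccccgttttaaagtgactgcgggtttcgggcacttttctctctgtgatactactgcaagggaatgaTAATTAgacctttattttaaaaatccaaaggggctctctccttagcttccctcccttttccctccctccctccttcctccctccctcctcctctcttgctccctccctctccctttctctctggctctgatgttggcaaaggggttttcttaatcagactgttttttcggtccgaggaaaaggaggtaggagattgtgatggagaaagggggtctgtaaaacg
The Pax9 window held 1 match to ACAATG, read here on the other strand at base 239 from its 5′ end, and the Prrx1 window 1 match to TAATTA at base 78. The Prrx2 window held 1 match to CCACCCA, and those of Twist1 and Tbx18 held no match to the 5 words. A match is a run of letters and not a bound site.

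Among the paired-type genes, Prrx1 and Prrx2 encode related homeodomain proteins that together support outgrowth and skeletal patterning of the limb. Prrx1 (chr1:163245119-163313710, minus strand; mm10, as are the positions below) read 44.3, 51.7 and 40.4 RPKM in E11.5 controls 1 to 3, 47.9, 47.9, 41.6 and 39.9 RPKM in Sox9null 1 to 4, 38.9, 37.7 and 38.9 RPKM in E12.5 controls and 42.4, 40.4 and 40.4 RPKM in Sox9cKO. The lowest 3 libraries were the E12.5 controls, which did not overlap with Sox9cKO or with the E11.5 controls, and the highest 3 were the set of control 2 and Sox9null 1 and 2. An antisense gene in the Prrx1 locus, Gm20471, was also highest in those 3 libraries, at 20.2, 19.6 and 9.89 RPKM against 4.65 to 7.32 RPKM in the other 4 at E11.5. It shares no exon base with Prrx1, no label states whether counting used strand, and its part in the Prrx1 values was not tested. Prrx2 (chr2:30834972-30881251, plus strand) read 36.2, 33.6 and 34.9 RPKM in E11.5 controls, 28.9, 34.5, 36.4 and 37.4 RPKM in Sox9null, 34.5, 32.4 and 32.0 RPKM in E12.5 controls and 35.6, 34.5 and 33.1 RPKM in Sox9cKO. Its groups overlapped throughout. At E11.5 the set of control 2 and Sox9null 1 and 2 read 28.9 to 34.5 RPKM, below the other set at 34.9 to 37.4 RPKM.

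Alx4 encodes an aristaless-related homeodomain protein of the anterior limb mesenchyme that restrains the Shh domain. Alx4 (chr2:93642384-93681339, plus strand) read 19.2, 10.8 and 16.3 RPKM in E11.5 controls, 20.2, 21.1, 19.4 and 17.9 RPKM in Sox9null, 6.02, 14.4 and 8.77 RPKM in E12.5 controls and 10.5, 17.7 and 17.2 RPKM in Sox9cKO. The means ± SD were 15.4 ± 4.27 (n = 3), 19.7 ± 1.34 (n = 4), 9.74 ± 4.28 (n = 3) and 15.1 ± 4.02 RPKM (n = 3), so that both mutant means lay above those of their controls while the libraries of each pair overlapped. The Ext2 gene overlaps Alx4 on the opposite strand over 20312 bases but shares no exon base with it.

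Twist1, a helix-loop-helix factor needed for limb bud outgrowth that is also known as a regulator of mesenchymal fate, was one of the abundant and steady genes. Twist1 (chr12:33957671-33959829, plus strand) read 60.8, 53.9 and 56.7 RPKM in E11.5 controls, 49.8, 52.0, 59.9 and 55.1 RPKM in Sox9null, 47.7, 51.4 and 50.6 RPKM in E12.5 controls and 49.7, 52.8 and 50.7 RPKM in Sox9cKO. The E12.5 controls lay below all E11.5 controls, whereas the 2 mutant groups overlapped. Within E11.5, the set of control 2 and Sox9null 1 and 2 read 49.8 to 53.9 RPKM, below the other set at 55.1 to 60.8 RPKM.

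The T-box genes fell into 2 pairs. Tbx2 and Tbx3 encode repressors expressed at the margins of the limb bud, and Tbx15 and Tbx18 encode related factors of the limb and trunk mesenchyme. Tbx2 (chr11:85832551-85841948, plus strand) read 31.3, 27.3 and 29.1 RPKM in E11.5 controls, 33.4, 31.5, 29.3 and 27.6 RPKM in Sox9null, 23.4, 28.9 and 22.3 RPKM in E12.5 controls and 24.9, 28.4 and 27.5 RPKM in Sox9cKO, with overlap in every pair of groups compared. Tbx3 (chr5:119670669-119684724, plus strand) read 20.3, 18.4 and 16.8 RPKM in E11.5 controls, 26.2, 21.9, 16.6 and 16.2 RPKM in Sox9null, 10.9, 15.6 and 11.0 RPKM in E12.5 controls and 13.6, 17.1 and 17.0 RPKM in Sox9cKO. The E12.5 controls were lower than all 3 E11.5 controls. The 2 highest values were Sox9null 1 and 2, which belong to the same library set, but the 2 sets overlapped for Tbx3.

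Tbx15 (chr3:99240381-99354259, plus strand) read 61.0, 54.7 and 60.6 RPKM in E11.5 controls, 50.0, 52.4, 61.5 and 55.1 RPKM in Sox9null, 49.7, 52.7 and 50.6 RPKM in E12.5 controls and 51.6, 51.4 and 54.9 RPKM in Sox9cKO. The 3 libraries of the smaller E11.5 set were all below the other 4, and the E12.5 controls were below the E11.5 controls. The sets did not overlap for 4 of the 9 genes, Prrx1, Prrx2, Twist1 and Tbx15, against 57.3% of all genes. Tbx18 (chr9:87702800-87731260, minus strand) read 39.3, 33.4 and 39.0 RPKM in E11.5 controls, 32.4, 35.7, 38.9 and 33.8 RPKM in Sox9null, 29.5, 37.2 and 33.7 RPKM in E12.5 controls and 34.1, 37.2 and 38.2 RPKM in Sox9cKO, and its groups overlapped throughout. Opposite-strand genes share 970 exon bases with Tbx18 and 115 with Tbx3, whose reads cannot be told apart from theirs without strand.

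Pax9, a paired-box gene of the anterior limb mesenchyme, had the lowest mean level and the largest ratio of highest to lowest library, 4.74. Pax9 (chr12:56691767-56712822, plus strand) read 4.92, 9.04 and 7.13 RPKM in E11.5 controls, 2.60, 5.69, 4.95 and 4.10 RPKM in Sox9null, 12.3, 10.1 and 11.0 RPKM in E12.5 controls and 10.5, 9.34 and 6.32 RPKM in Sox9cKO. The 4 means ± SD were 7.03 ± 2.06 (n = 3), 4.34 ± 1.32 (n = 4), 11.1 ± 1.11 (n = 3) and 8.72 ± 2.16 RPKM (n = 3), so the mutant mean lay below the control mean at each age, with overlapping libraries, and each E12.5 group lay above the E11.5 group of its kind without overlap. Slc25a21 on the opposite strand shares 189 exon bases with Pax9.

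**Figure D2:**
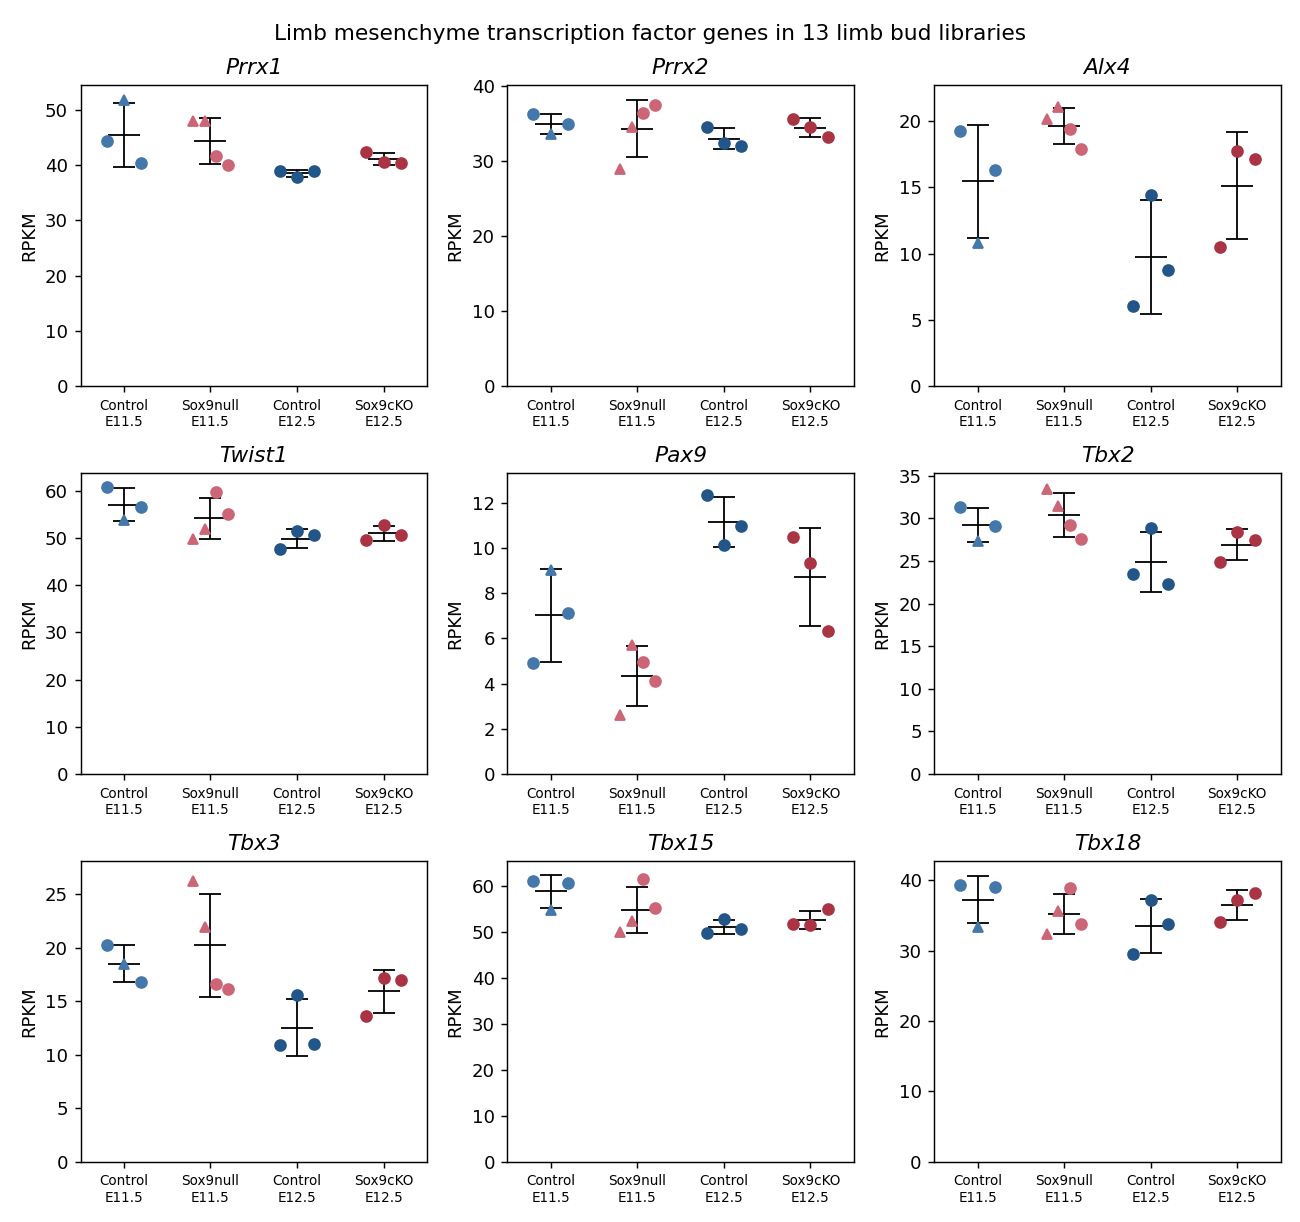
RPKM of the 9 genes in each of the 13 libraries by group (points; triangles are the E11.5 set of control 2 and Sox9null 1 and 2), with the group mean and SD (black bars). Pax9 is higher in both E12.5 groups than in the E11.5 groups of the same kind, and the other 8 genes have their lowest group mean in E12.5 controls, by the widest margin in Alx4 and Tbx3.

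The first comparison asked whether the 9 transcripts differed without Sox9 at E11.5. By limma on log2(RPKM + 1) with Benjamini-Hochberg adjustment over all listed genes, and a call at an adjusted p under 0.05, 0 of 9 were called, where 7 of 12880 genes (0.0543%) were. At an unadjusted limma p under 0.05, 1 of the 9 passed, against 2.82% of all genes, and 0 of 9 had libraries that did not overlap between the groups, against 2.47%. The gene below that unadjusted threshold was Pax9, with a difference of -0.59 on the log2 scale (95% interval -1.09 to -0.09, limma unadjusted p = 0.0243, adjusted p = 1.0). Within the library sets the Pax9 difference was -0.33 (2 Sox9null against 2 control libraries) and -1.03 (2 against 1). The cartilage gene sum was lower in the same mutant libraries, and its part in the Pax9 value was not tested. For Prrx1, Prrx2, Twist1, Tbx15 and Tbx18 the intervals of the change lay between -17.1% and 11.0% on the RPKM + 1 scale, so that larger changes of the mean fall outside them. Those of Tbx2 and Tbx3 reached 19.3% and 38.1%. Alx4 had the widest, from -13.0% to 89.6%, with 0.07 on the log2 scale in 1 library set and 0.87 in the other, and 0.14 without control 2. The median difference was -0.03 over the 9 genes and 0.01 over all genes, and 3 of 9 lay above 0, against 56.8% of all genes.

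At E12.5 the Sox9cKO limb buds were compared with their controls in the same way, and 0 of 9 genes were called, where 0.194% of all genes were. At an unadjusted limma p under 0.05 there was 1 of 9, against 5.41%, and 1 of 9 had libraries that did not overlap, Prrx1, against 20%. Prrx1 differed by 0.09 on the log2 scale (95% interval -0.10 to 0.29). The gene with the unadjusted p was Alx4, with a difference of 0.63 (95% interval 0.03 to 1.23, limma unadjusted p = 0.0415, adjusted p = 0.872). It was 0.36 without E12.5 control 1 and 0.93 without E12.5 control 2. Tbx3 differed by 0.33 (-0.06 to 0.73) and Pax9 by -0.34 (-0.88 to 0.19), the latter -0.15 without Sox9cKO 3. The changes of the other 6, Prrx1 among them, had intervals between -8.05% and 25.9%. The E12.5 controls with the least Alx4 and Tbx3, controls 1 and 3, had the most Acan, a cartilage matrix gene, at 8.43 and 10.5 RPKM against 3.25 RPKM in control 2 and 0.09 to 0.92 RPKM in Sox9cKO. All 3 E12.5 controls and 1 Sox9cKO library had Y-linked transcripts. With sex as a term in the fit, the differences were 0.80 for Alx4, 0.33 for Tbx3 and -0.53 for Pax9. The part of the cartilage content in these values was not tested. Over the 9 genes 8 lay above 0, with a median of 0.09, against 56.8% of all genes and a median of 0.01.

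**Figure D3:**
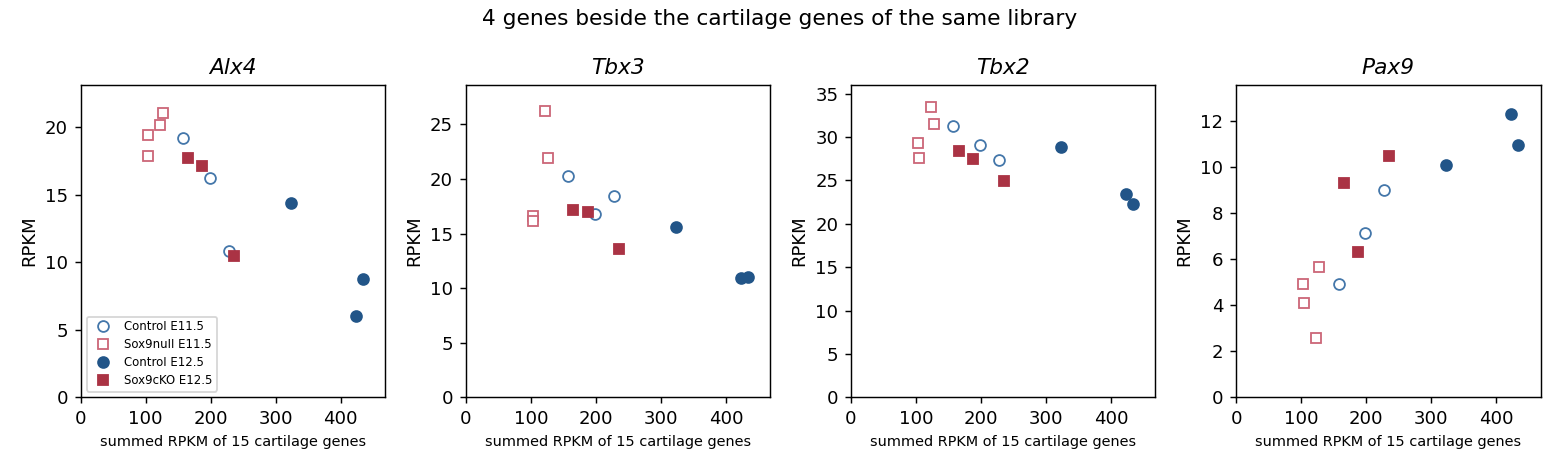
RPKM of Alx4, Tbx3, Tbx2 and Pax9 against the summed RPKM of 15 cartilage genes in the same library, each point a library, open for E11.5 and filled for E12.5, circles for controls and squares for mutants. The E12.5 controls have the highest cartilage sums, 323 to 434 RPKM; Pax9 is high in them, and Alx4, Tbx3 and Tbx2 are lowest in 2 of the 3.

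Whether the mutant effect differed between the ages was tested as a difference of the 2 differences, and 0 of 9 genes were called, against 0.0311% of all genes. At an unadjusted limma p under 0.05 there were 0 of 9, against 3.05% of all genes. The 9 values lay between 0.06 (Tbx2) and 0.27 (Alx4), all above 0, against 49.9% of all genes. Their intervals were wide for Alx4 (-0.55 to 1.09), Pax9 (-0.48 to 0.99) and Tbx3 (-0.30 to 0.78).

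Between the controls of the 2 ages, 0 of 9 genes were called, whereas 21.7% of all genes were. At an unadjusted limma p under 0.05, 7 of 9 passed, against 36.5%, and the libraries of 5 of 9 did not overlap, against 45.9%. Those 5 were Prrx1, Twist1, Tbx3 and Tbx15, lower at E12.5, and Pax9, higher at E12.5. The nearest to the threshold was Tbx3, which differed by -0.54 (95% interval -0.94 to -0.15, limma adjusted p = 0.0509). Without Sox9null 1, 3 or 4 or E12.5 control 2, its limma adjusted p was 0.0237, 0.0457, 0.0418 and 0.0269. Twist1, Tbx15 and Prrx1 differed by -0.19, -0.20 and -0.23, with limma adjusted p between 0.0723 and 0.0899. Alx4 differed by -0.66 (-1.26 to -0.06) and Tbx2 by -0.23 (-0.45 to -0.02), and without E12.5 control 2, the E12.5 control with the most of both, each passed with limma adjusted p = 0.0271 and 0.0268. In the other direction, Alx4 was -0.39 without E12.5 control 1 (limma adjusted p = 0.369), Tbx2 -0.16 without E12.5 control 3 (0.324) and Prrx1 -0.13 without E11.5 control 2 (0.285). Pax9 differed the other way, by 0.63 (0.09 to 1.16, limma adjusted p = 0.0877). Leaving out 1 library also brought past the threshold Prrx1 without E11.5 control 3 (limma adjusted p = 0.0373), Twist1 without Sox9null 1 (0.0496) or 3 (0.0421), Tbx15 without E11.5 control 2 (0.0493) or Sox9null 3 (0.0339), and Pax9 without Sox9null 1 (0.0443). Of all genes, the fits without Sox9null 1, 3 or 4 called 26.2%, 22.7% and 22.9%. Those without E11.5 control 2 or 3 called 17.4% and 19.6%, and that without E12.5 control 2 called 15.4%. The highest limma adjusted p when a library was left out was 0.173 for Tbx3, 0.207 for Tbx15, 0.232 for Twist1 and 0.267 for Pax9. With the E11.5 library set as a term, Prrx1, Tbx15, Twist1 and Tbx3 passed with limma adjusted p of 0.00014, 0.00549, 0.00722 and 0.00975. That fit called 55.4% of all genes. The sets were clustered from these same values, so the term takes up part of the spread by construction, and the passes are no separate support. The mutant libraries enter the leave-one-out values only through the shared estimate of the spread. In all, 8 of 9 lay below 0, while 60.9% of all genes lay above it.

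Between the mutants of the 2 ages, Pax9 rose and was the 1 gene of the 9 called, where 19.7% of all genes were. It was 2.01-fold higher in Sox9cKO than in Sox9null, at 8.72 against 4.34 RPKM, a log2 difference of 0.88 ± 0.23 (SE, 95% interval 0.38 to 1.38, limma adjusted p = 0.0227), and all 3 libraries lay above all 4. The call was lost without Sox9cKO 1 (limma adjusted p = 0.0958, 7.57% of all genes called) or Sox9cKO 2 (0.0937, 5.49%). It was also lost when the fit held the replicate number as a block (0.0783, 8.21%) or the 2 mutant groups alone (0.0607, 7.17%). At an unadjusted limma p under 0.05 there was 1 of 9, against 36.4% of all genes. The libraries of 2 of 9 did not overlap, Pax9 and Alx4, against 33.5%. Alx4 differed by -0.39 (-0.95 to 0.17). The interval of Prrx2, 0.01 (-0.16 to 0.18), and that of Tbx18, 0.05 (-0.14 to 0.25), were centred near 0. The cartilage gene sums of the 2 mutant groups did not overlap either, and their part in the Pax9 value was not tested. In the authors' deposited table the adjusted p over the 4 groups was at most 0.05 for 1 of the 9, Pax9 at 0.036, and for 22.0% of all genes, and the other 8 lay between 0.115 and 0.906.

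**Figure D4:**
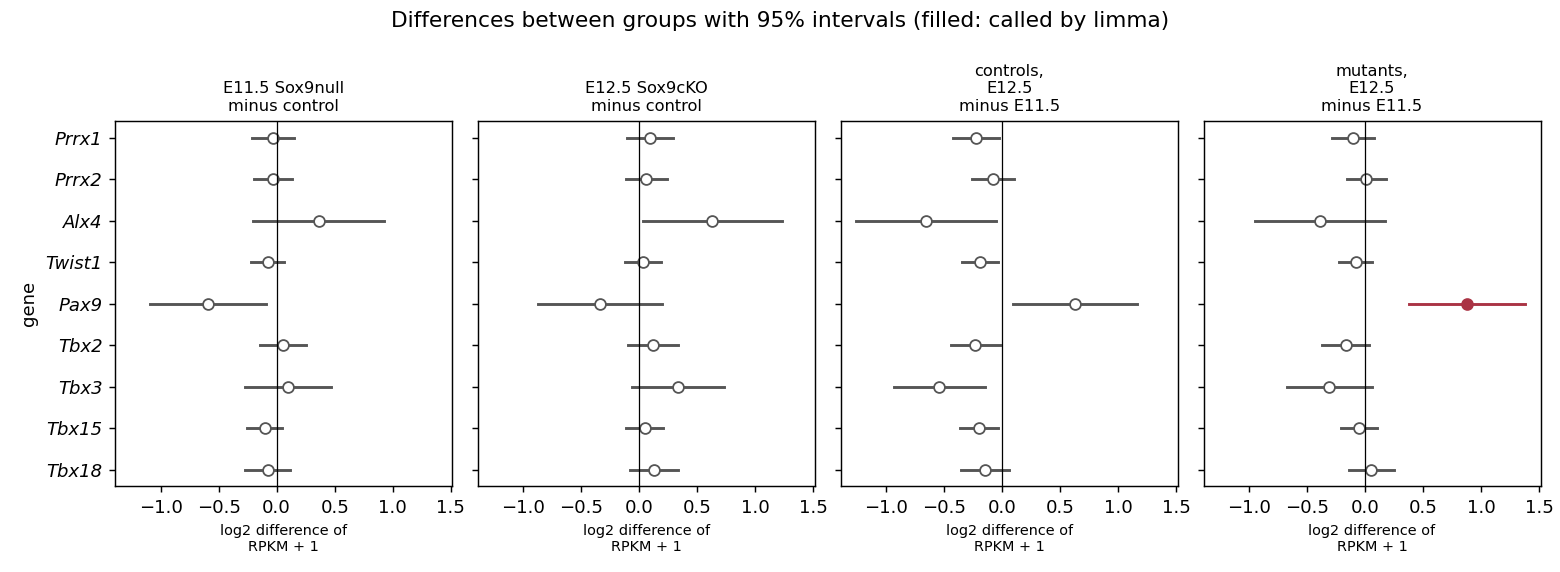
Differences of log2(RPKM + 1) between groups for the 9 genes (circles) with 95% intervals (lines), for Sox9null and Sox9cKO against their controls and for E12.5 against E11.5 in controls and mutants. The red filled circle, Pax9 between the mutants at 0.88, is the 1 difference called by limma.

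By root mean square distance of centred log2(RPKM + 1) profiles over 13 libraries, the genes most like Pax9 were Rin2 (0.208), Tll1 (0.212) and Col9a1 (0.212), where the median of all other genes was 0.539. Their group means were lowest in Sox9null and highest in E12.5 controls: 10.7 and 22.6 RPKM for Rin2, 1.98 and 6.10 RPKM for Tll1, and 21.9 and 44.1 RPKM for Col9a1, a cartilage collagen gene. These genes were picked for their likeness to Pax9 over the same libraries, so the shared order of groups follows from the choice. The likeness rule was applied to Pax9 alone, the gene called.

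Genes of the same families and pathways were read from lists beside the 9. Beside the counts below, limma called 21.7% of all genes between controls and 19.7% between mutants. Of the T-box, paired-type and Pax relatives, 9 of 22 were listed. Between controls 2 rose and 3 fell at E12.5, with Eomes at 1.67, Pax3 at -0.98, Tbx1 at 0.82 and Pitx1 at -0.39 on the log2 scale, and between mutants 0 rose and 2 fell, Pax3 by 0.77 and the hindlimb gene Tbx4 by 0.22. Pax3 is a gene of immigrant muscle precursors. Tbx4 had group means between 39.8 and 51.1 RPKM and Pitx1 between 61.6 and 81.0 RPKM. Tbx5, looked for with these relatives, was not among the listed genes. Which limb buds were taken was not tested. Of the helix-loop-helix relatives and partners of Twist1, 16 of 18 were listed, and 4 rose and 2 fell between controls, led by Msc at 0.95, Id4 at 0.59, Zeb2 at 0.58 and Tcf3 at -0.35. Between mutants Msc and Id4 rose by 0.77 and 0.67 and Tcf3, which encodes an E protein partner, fell by 0.26.

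The same all-gene shares, 21.7% between controls and 19.7% between mutants, stand beside the next 2 lists. Of other limb mesenchyme transcription factors, 38 of 41 were listed, and 6 rose and 5 fell between controls, led by Sall3 at -1.31, Hic1 at 1.05, Emx2 at 1.02 and Sall4 at -0.96. Between mutants 3 rose and 4 fell, led by Sall3 at -0.86, Foxc1 at 0.82, Barx2 at 0.66 and Hic1 at 0.64. Of SHH, BMP and FGF pathway genes, 24 of 25 were listed, and 7 rose and 8 fell between controls, led by Shh at -2.06, Fgfr3 at 0.96, Fgf8 at -0.92 and Grem1 at -0.76. Between mutants 4 rose and 5 fell, led by Shh at -1.56, Fgfr3 at 0.71, Bmp2 at 0.68 and Bmpr1b at 0.64. Shh is the posterior signal of the limb bud and Fgf8 that of its apical ridge. The median log2 difference of the 4 lists was -0.29, -0.09, -0.14 and -0.07 between controls and -0.09, -0.02, -0.13 and -0.09 between mutants, where that of all genes was 0.06 in both. In the 2 mutant-against-control comparisons and in their difference, 0 of the 87 genes of these 4 lists were called by limma, and at an unadjusted limma p under 0.05 there were 4 at E11.5, 18 at E12.5 and 7 in the difference, against 2.82%, 5.41% and 3.05% of all genes. Under some alternatives Eomes, Foxc1, Hhip and Osr2 passed at E12.5, and Foxc1 at E11.5 with library set as a term; these genes were chosen after their values were seen. At E12.5 Eomes differed by -1.46 (limma adjusted p = 0.0601), Hhip, which encodes a hedgehog-binding protein, by -0.77 (0.092) and Foxc1 by -0.52 (0.0919). The most abundant gene of each list differed at E12.5 by less, with Pitx1 at 0.12, Tcf3 at 0.05, Peg3 at 0.04 and Dusp6 at 0.16.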

How the data were processed

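RNA-seq values of 13 mouse limb bud libraries were taken from the table deposited for the whole series. Per the labels' protocols, the submitters purified total RNA (RNeasy Mini Kit) and followed standard Illumina library preparation. CASAVA 1.8 and mm10 were used, per the submitters' processing notes; aligner, counting, strand use and annotation: not given in the sources used here. Values are normalized RPKM per gene and library, made by the authors, who kept genes averaging 3 or more in any of the 4 groups, per the file headers, so genes low everywhere are not analysed here. RPKM summed to 245000 to 268000 per library; read depth is unknown and no interval from counts is given. Per the file headers, the authors also gave a p-value per gene from a one-way ANOVA over the 4 groups, adjusted by the false discovery rate.

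Groups follow the labels and the file headers; the libraries come from separate embryos. limma 3.58.1 (R 4.3.3), with variance trend and robust estimation, was fitted on log2(RPKM + 1) of all 12880 genes with the 4 group means, tested two-sided on simulated data first. A filter of 1 RPKM in 3 libraries removed 0 genes. p was adjusted by Benjamini-Hochberg within each of 5 comparisons and called under 0.05. Fold changes on this scale understate those of low genes. Summaries used Python 3.11.15. Members, lists and tests were chosen with earlier results of these data known. All 9 genes are named with their values; from other lists, up to 4 called genes by size of difference, or the most abundant where fewer than 2 were called. Of the genes, 12715 matched GENCODE by Ensembl gene identifier, and positions come from it. Promoter windows come from RefSeq, by symbol. Replicate numbers were not used as pairs in the main fit. Correlations of deviations ran from -0.435 to 0.635 for same-numbered libraries and from -0.725 to 0.74 for different-numbered ones. With both ranges this wide, they cannot show whether the numbers pair libraries. The alternatives tried are given in the closing section.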

Additional observations from a re-analysis of the deposited data

How the results depend on the processing

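Results were recomputed under 23 alternatives (22 for the difference of the mutant effects), among them 13 fits that each left out 1 library. No member was called in either mutant-against-control comparison or in their difference under any of them. Between controls, 0 members were called. The count was 3 with median-ratio scaling (26.5% of all genes called), 1 with only the groups compared (20.3%) and 2 with sex as a term (18.9%). It was 4 with library set as a term (55.4%) and 0 to 3 when a library was left out (10.7% to 26.2%). Between mutants, 1 member was called. The count was 2 with median-ratio scaling (22.0%), 0 with only the groups compared (7.17%) and 0 with the replicate block (8.21%). It was 2 with library set as a term (51.8%) and 0 to 1 when a library was left out (5.49% to 23.1%). Median-ratio scaling moved the median log2 difference of all genes from 0.06 to -0.01 between controls and from 0.06 to -0.00431 between mutants. Over all genes the library-set term raised the calls from 7 to 41 at E11.5, 25 to 105 at E12.5, 2794 to 7132 between controls and 2539 to 6675 between mutants, and median-ratio scaling raised E11.5 to 14. A pseudocount of 3 gave 42 at E12.5, the replicate block 16 at E12.5 and 1057 between mutants, and only the groups compared 0 at E11.5 and 924 between mutants. Leaving out a library gave 2 to 8, 9 to 45, 1379 to 3374 and 707 to 2976; the difference of the mutant effects, 4, ran from 0 to 10. For the other gene lists, the library-set term raised other limb transcription factors from 11 to 24 between controls and 7 to 16 between mutants. Leaving out E12.5 control 1 lowered the signalling genes from 15 to 7 between controls (10.7% of all genes called), and Sox9cKO 2 lowered them from 9 to 0 between mutants (5.49%). The library-set term came from clusters of these same values, so its added calls are no separate support. It was recoded after its first results were seen, from the larger E11.5 set as the base to the midpoint of both sets.

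Of 45 member differences 8 changed sign in at least 1 alternative, all uncalled. At E11.5 Prrx1 was 0.0155 with the replicate block and -0.112 to 0.0626 when a library was left out, Prrx2 -0.0735 to 0.0473 and Tbx3 -0.0314 to 0.191. In the difference of the mutant effects, Alx4 ran from -0.000772 to 0.566 and Tbx2 from -0.00812 to 0.171 when a library was left out. Between mutants, Prrx2 was -0.0551 with median-ratio scaling and -0.0668 to 0.054 when a library was left out, Tbx15 -0.0936 to 0.00454 when a library was left out, and Tbx18 -0.0136 with median-ratio scaling. The causes were not tested. Pax9 between mutants stayed positive, 0.68 to 1.07, and was called in 19 of 23, with adjusted p of 0.0109 to 0.0958 by limma. The 23 do not weigh alike: the fit with no filter equals the main fit, as the filter removed 0 genes. Fits without a control library reach this difference only through the shared estimate of the spread. Without Sox9cKO 1 or 2 the call was lost (limma adjusted p = 0.0958 and 0.0937), in fits that called 7.57% and 5.49% of all genes. Whether replicate numbers pair the libraries is not known, and the replicate block moved no other count of members called. Depth is unknown, so its limit on Pax9, the lowest gene, is too.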
